A study of Homo sapiens with 4 samples.

Results

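The Hedgehog genes described here are 9 genes of 1 signalling pathway: the ligands DHH, IHH and SHH, the receptor PTCH1, the transducer SMO, the ligand-binding inhibitor HHIP and the transcription factors GLI1, GLI2 and GLI3. They were found by gene symbol in tables of 42067 symbols, and 27263 of these, with all 9 members among them, had the 40 reads over the libraries needed for testing. The members were chosen by pathway with the H2O2 against mock differences of these same libraries in view. Their differences between the groups are therefore given as a description, with an error and no p-value. Where a gene had several transcript models, the one with the most reads over all libraries was used.

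The cells were Huh7, an established human hepatocellular carcinoma line. All were grown for 4 days with daily medium changes, as mock cultures or with 300 µM hydrogen peroxide (H2O2), an oxidant that enters cells. Each group has 2 RNA-seq libraries, titled with the letters H and Q, and no source used here gives their meaning. The labels do not say whether the duplicates were separate cultures, so the errors below measure the spread between these libraries, which may be technical. In bulk RNA, fewer cells of a kind and less RNA per cell cannot be told apart.

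Hedgehog ligands are secreted proteins that bind Patched on a receiving cell. Free Patched holds the membrane protein Smoothened inactive. Ligand lifts this block, and GLI factors then turn on target genes, which include PTCH1, HHIP and GLI1 themselves, so their RNA is often used to read pathway activity. Signalling runs through the primary cilium. In liver the pathway is low in healthy hepatocytes and is known from repair, stellate cells and some tumours.

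The members' promoters are shown for the 3 ligands, on which the values below turn, and for PTCH1, since its upstream sequence holds the site that GLI factors bind. Each sequence is the 250 bases before a transcript start, read 5′ to 3′ on the gene's strand, from RefSeq on GRCh38.p14. Capitals mark 2 motifs on either strand, the GLI site GACCACCCA (TGGGTGGTC on the other strand) and the box GGGCGG (the GC box), and the GLI site and GC box of the PTCH1 window do not overlap. DHH lies at chr12:49094802-49095051, IHH at chr2:219060922-219061171, SHH at chr7:155812464-155812713 and the PTCH1 start with the GLI site at chr9:95509267-95509516, all on the minus strand.
DHH: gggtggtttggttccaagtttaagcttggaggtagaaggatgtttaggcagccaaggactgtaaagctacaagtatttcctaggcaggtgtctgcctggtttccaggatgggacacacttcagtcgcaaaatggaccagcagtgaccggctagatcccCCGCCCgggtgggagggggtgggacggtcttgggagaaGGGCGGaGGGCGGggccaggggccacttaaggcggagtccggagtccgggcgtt
IHH: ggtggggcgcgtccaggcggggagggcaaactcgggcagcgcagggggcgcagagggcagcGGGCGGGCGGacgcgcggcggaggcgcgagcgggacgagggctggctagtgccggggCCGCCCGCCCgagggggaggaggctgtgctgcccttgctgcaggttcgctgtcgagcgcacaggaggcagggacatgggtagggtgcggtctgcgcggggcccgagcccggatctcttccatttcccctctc
SHH: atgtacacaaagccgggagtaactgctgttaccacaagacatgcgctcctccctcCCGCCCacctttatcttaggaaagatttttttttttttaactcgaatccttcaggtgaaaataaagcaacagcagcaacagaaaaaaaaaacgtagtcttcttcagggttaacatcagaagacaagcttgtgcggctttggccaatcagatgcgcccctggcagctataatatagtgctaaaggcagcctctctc
PTCH1: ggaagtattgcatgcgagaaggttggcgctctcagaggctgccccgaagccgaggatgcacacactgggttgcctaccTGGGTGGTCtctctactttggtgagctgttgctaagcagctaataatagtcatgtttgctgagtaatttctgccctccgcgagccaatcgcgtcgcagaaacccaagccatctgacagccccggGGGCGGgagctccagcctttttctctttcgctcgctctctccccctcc

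The 3 ligand promoters differ in base composition. GC content was 59.6% for DHH, 75.6% for IHH and 44.4% for SHH, beside a median of 58% over 35116 promoter windows of the same length. The DHH window holds 3 GC boxes, that of IHH 4, overlapping in pairs, and that of SHH 1, and 42.6% of all windows hold at least 1. The GLI site occurs in 1 of the 5 PTCH1 windows, 172 bases before the start, and in 0.199% of all windows. Neither it nor the core of the antioxidant response element (TGACNNNGC, in 10.9% of all windows) occurs in a ligand window. In all, 7 members had 12 windows in the table, GLI1 and GLI3 had none, and an element core was found in the SMO window alone of these. A match of letters describes the window and does not show a bound factor. For DHH, the bases after the window were found near the start of the GENCODE transcript matched to the counted model. For IHH, SHH and every PTCH1 window they were not, so these windows may not be those of the counted transcripts.

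Levels are given as CPM, read counts scaled to one common library total, after TMM scaling, which corrects for library composition. Mapped read mates numbered 78126878 to 88409567 per library, with 87.4% to 91.7% of mates mapped. The labelled hepatocyte origin was checked by markers, and all 10 hepatocyte genes lay at 1 CPM or above in every library, led by albumin (ALB) at 2560 to 9130 CPM. Their summed level was 18900 and 6040 CPM in mock H and mock Q and 22200 and 12700 CPM in H2O2 H and H2O2 Q, so the letters differ in both groups. Of 10 markers of stellate cells and fibroblasts, which are known to answer Hedgehog ligands, 3 reached 1 CPM in every library, and without COL1A1 (14.3 to 21.8 CPM) their sum was 8.92 to 10.3 CPM. Endothelial markers summed to 3.11 to 5.06 CPM, of which PECAM1 was 2.02 to 2.55, and 2 of the 7 had under 40 reads over all libraries. Blood markers summed to 471 to 673 CPM, mostly LYZ (392 to 596), and bile duct markers to 246 to 688 CPM, with SPP1 between 103 and 563. The blood sum was higher, and the stellate and fibroblast sum lower, in both H2O2 libraries than in both mock libraries, while the other 3 sums overlapped. Both separations rest on the top gene. LYZ measured 418 and 392 CPM in mock and 596 and 538 in H2O2, and without it the blood sums overlapped. COL1A1 measured 18.7 and 21.8 CPM in mock and 14.3 and 15.3 in H2O2, and without it the stellate and fibroblast sum was slightly higher in H2O2. Huh7 is a cell line, so these sums are levels of marker RNA and do not show that such other cells were present. Any link of these sums to the differences below was not tested.

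DHH, Desert hedgehog, a ligand best known from testis and peripheral nerve, was 8.46-fold lower in H2O2. It had 271 reads in mock H and 270 in mock Q, and 35 in H2O2 H and 30 in H2O2 Q. These are 2.80 and 2.23 CPM (mean 2.51 ± 0.400 SD, n = 2) against 0.343 and 0.251 CPM (0.297 ± 0.0647 SD, n = 2). Both H2O2 libraries lie far below both mock libraries, and the duplicates lie close together. The log2 fold change was −3.08 (SE 0.34), with −3.03 between the H libraries and −3.15 between the Q libraries. By counting error alone, the H2O2 to mock ratio of 0.118 has an exact 95% interval of 0.0899 to 0.153. Such intervals take each read as independent, which overstates their precision. The deposited FPKM, a value the authors give beside the reads, ran the same way, from 6.84 and 5.86 in mock to 0.848 and 0.613 in H2O2. Ranked by log2 fold change, DHH was the 45th lowest of 27263 genes.

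The genes beside DHH on chromosome 12 give its local context. LMBR1L, on one side, measured 60.8 and 47.7 CPM in mock and 51.2 and 35.1 CPM in H2O2 (log2 difference −0.33, SE 0.27, edgeR adjusted p = 0.789), and its groups overlap. RHEBL1, on the other side, measured 3.43 and 5.33 against 6.37 and 7.61 CPM (0.67, SE 0.31, edgeR adjusted p = 0.719), higher in both H2O2 libraries. An antisense gene, DHH-AS1, overlaps DHH in the RefSeq annotation. The use of strand in counting is not given in the sources used here, so reads of DHH and DHH-AS1 cannot be told apart.

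IHH, Indian hedgehog, a ligand best known from growing cartilage, was lower in H2O2 by a smaller amount. It measured 12.7 CPM in mock H and 7.71 in mock Q (mean 10.2 ± 3.50 SD, n = 2), and 5.99 in H2O2 H and 5.89 in H2O2 Q (5.94 ± 0.0704 SD, n = 2). Both H2O2 libraries lie below both mock libraries, but the mock libraries lie further from each other than mock Q does from H2O2. The log2 fold change was −0.78 (SE 0.31), with −1.08 between the H libraries and −0.39 between the Q libraries. Without mock H it was −0.38, and without mock Q −1.10.

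SHH, Sonic hedgehog, the ligand of neural tube and limb patterning, measured nearly the same in all libraries. Its values were 5.47 and 5.63 CPM in mock and 5.65 and 5.04 CPM in H2O2, and the groups overlap. The log2 fold change was −0.06 (SE 0.23), and 0.03 without H2O2 Q. A 95% counting interval of 0.882 to 1.04 bounds its H2O2 to mock ratio of 0.956, apart from variation between cultures.

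**Figure D1:**
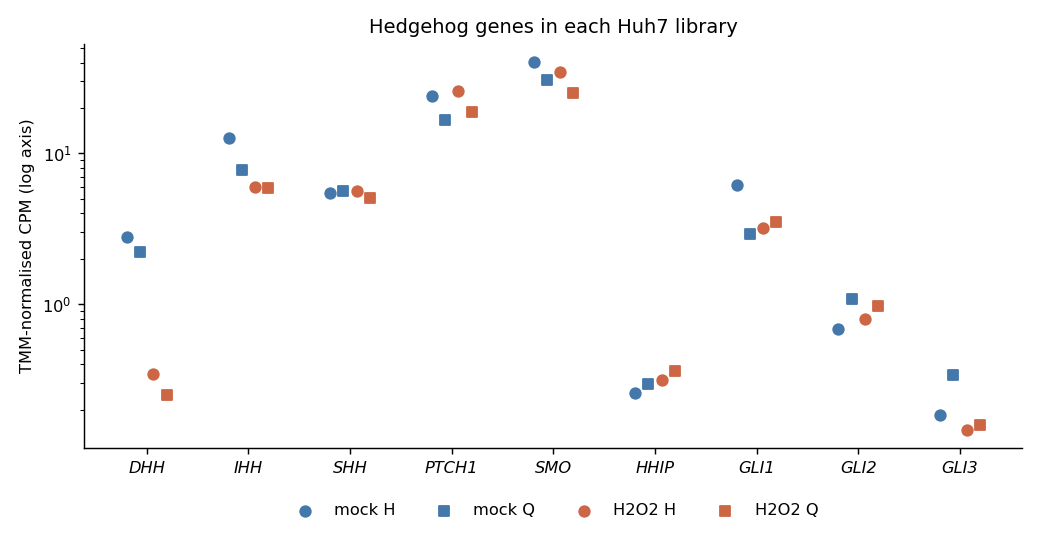
Level of each Hedgehog gene in each library, in TMM-normalised CPM on a log axis, with blue for mock, orange for H2O2, circles for letter H and squares for letter Q. DHH is the one gene whose groups stand far apart, at 2.80 and 2.23 CPM in mock against 0.343 and 0.251 CPM in H2O2.

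Between genes, levels can be compared only per length, as RPKM (reads scaled by transcript length and library size), using GENCODE v29 lengths of the matched transcripts. On these lengths IHH was the leading ligand, at 6.26 and 3.81 RPKM in mock H and Q. It measured 2.96 and 2.91 RPKM in H2O2 H and Q, and SHH followed at 1.13 to 1.27 RPKM. By the deposited FPKM, IHH lay above SHH in mock (26.1 and 17.9 against 14.1 and 16.2). In H2O2 it lay below SHH (11.9 and 14.4 against 14.1 and 14.5), so which ligand led in H2O2 depends on the measure. DHH was the least abundant ligand in all 4 libraries, at 0.595 and 0.475 RPKM in mock and 0.0729 and 0.0534 in H2O2. Its share of length-scaled ligand RNA was 7.36% and 8.55% in mock and 1.69% and 1.3% in H2O2. The share of IHH was 77.4% and 68.6% in mock and 68.8% and 71.1% in H2O2, without separation. That of SHH was 15.2% and 22.9% in mock and 29.5% and 27.6% in H2O2. All these shares rest on the transcript lengths used. The deposited FPKM stand in other proportions, with DHH at 6.84, IHH at 26.1 and SHH at 14.1 in mock H.

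**Figure D2:**
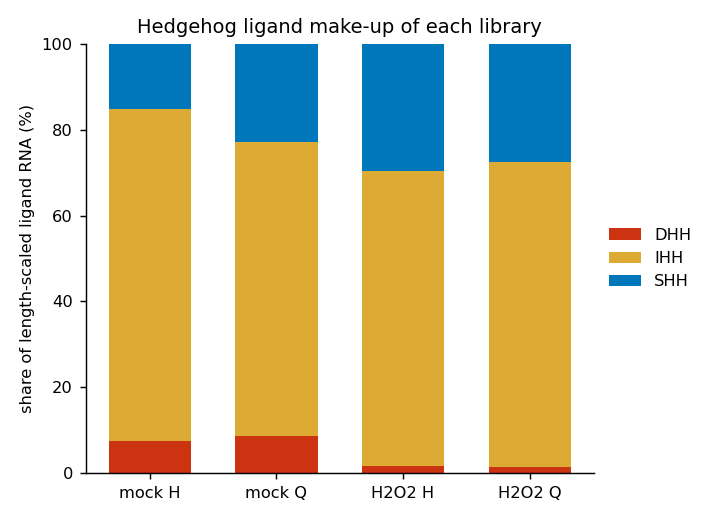
Share of the length-scaled RNA of the 3 ligands in each library, in percent, stacked to 100%. The DHH share, in red, is 7.36% and 8.55% in mock and 1.69% and 1.3% in H2O2. On the transcript lengths used, IHH is the largest part of every bar, while the deposited FPKM put SHH above IHH in H2O2.

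PTCH1, the ligand receptor and a target gene of the pathway, differed little between the groups. It measured 23.9 and 16.6 CPM in mock H and Q and 25.8 and 18.9 CPM in H2O2 H and Q. The libraries pair by letter rather than by treatment, with Q below H by log2 differences of −0.53 in mock and −0.45 in H2O2. The log2 fold change was 0.14 (SE 0.28), and it turned to −0.10 without mock Q or without H2O2 H. The 7 transcript models of PTCH1 held 9027 to 9205 reads each and gave log2 ratios of 0.135 to 0.147, so they count nearly the same reads.

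SMO, the membrane protein that carries the signal inward, was the most abundant member per length. It measured 40.1 and 30.6 CPM in mock and 34.6 and 25.3 CPM in H2O2, and the groups overlap. The log2 fold change was −0.24 (SE 0.26), with −0.21 between the H and −0.28 between the Q libraries. It was −0.03 without mock H, −0.43 without mock Q, −0.49 without H2O2 H and −0.02 without H2O2 Q. As for PTCH1, the Q library was lower than H in each group, by log2 differences of −0.39 and −0.46. HHIP, a surface protein that binds ligand and dampens the signal, lay near the limit of counting, with 25 and 36 reads in mock and 32 and 43 in H2O2. Its levels of 0.258 and 0.297 against 0.313 and 0.360 CPM do not overlap between groups. Its ratio of 1.21 has a 95% counting interval of 0.851 to 1.72, so the difference is not detectable at this depth.

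GLI1, the activator whose own gene is a target of the pathway, stood high in 1 mock library. It measured 6.16 CPM in mock H, 2.93 in mock Q, 3.21 in H2O2 H and 3.51 in H2O2 Q. Mock Q lies below both H2O2 libraries and mock H above them. The log2 fold change of −0.43 (SE 0.40) came from −0.94 between the H libraries and 0.26 between the Q libraries, and without mock H it was 0.20. The 3 models of GLI1 gave log2 ratios of −0.434 to −0.413.

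GLI2, the main activator upstream of GLI1, measured 0.681 and 1.09 CPM in mock and 0.793 and 0.979 CPM in H2O2. The H2O2 values lie between the mock values, and the fitted log2 fold change was −0.0020 (SE 0.37). Its sign turned under 9 of 12 alternatives, among them without mock Q (0.38) and without H2O2 H (0.14). GLI3, which acts mostly as a repressor in the absence of ligand, had 18 and 41 reads in mock and 15 and 19 in H2O2. These are 0.186 and 0.339 against 0.147 and 0.159 CPM (log2 fold change −0.78, SE 0.54). The H2O2 values are lower than both mock values, by little in the case of mock H. The ratio of 0.567 has a counting interval of 0.360 to 0.878, and the log2 fold change without mock Q was −0.28. The deposited FPKM of GLI3 were 0.543 and 0.915 in mock and 0.0829 and 0.0360 in H2O2, and limma on log2(FPKM + 0.1) gave −2.36. Their ratio to CPM differed up to 12.9-fold between libraries for GLI3 and 3.42-fold for GLI2, beside a median of 1.2-fold over all genes, so these FPKM do not follow the reads.

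**Figure D3:**
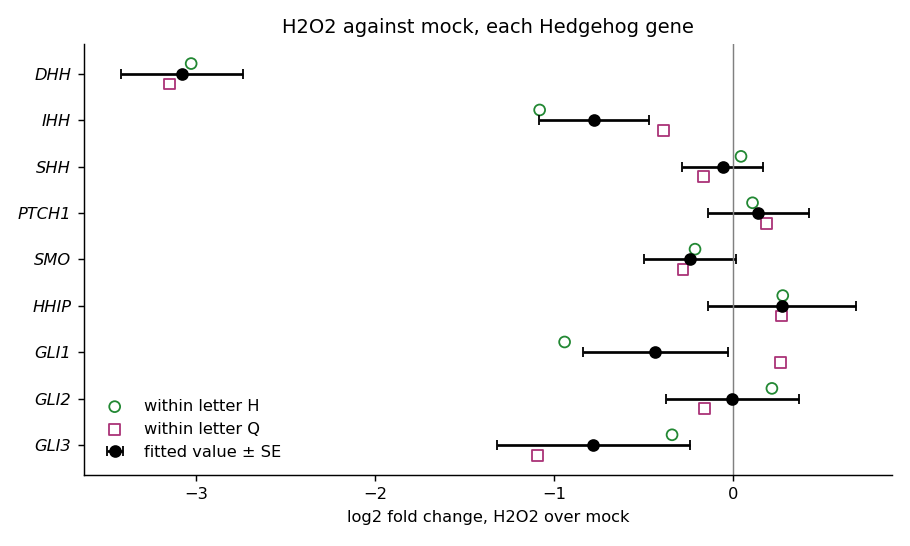
Log2 fold change of H2O2 over mock for each Hedgehog gene, as the fitted value with its SE (black), the H2O2 over mock ratio within letter H (green circles) and within letter Q (purple squares). DHH lies at −3.08 with both letters near it, IHH and GLI3 at −0.78, and GLI1 is split between −0.94 within H and 0.26 within Q.

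The order of the members per length was SMO (mean 8.73 RPKM over the libraries), IHH (3.99), PTCH1 (2.64), SHH (1.22), GLI1 (1.09), DHH (0.299), GLI2 (0.131), HHIP (0.0305) and GLI3 (0.0253). The 4 values of SMO lie above those of IHH, those of PTCH1 above those of SHH, those of GLI1 above those of DHH and those of GLI2 above those of HHIP. The other neighbours in this order overlap in their values. By the deposited FPKM the order differed. PTCH1 (82.1 to 117) lay above IHH (11.9 to 26.1) in every library, and GLI1 (15.9 to 28.2) above SHH (14.1 to 16.2). By RPKM, DHH exceeded GLI2 in both mock libraries and lay below it in both H2O2 libraries, where GLI2 measured 0.117 and 0.145 RPKM. By the deposited FPKM, DHH lay above GLI2 in H2O2 H (0.848 against 0.378) and below it in H2O2 Q (0.613 against 1.29).

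As a group, 7 of the 9 members had a negative log2 fold change, with a median of −0.24, beside −0.03 over all genes tested, of which 52.8% were negative. Of the 7, SHH, GLI1 and GLI2 turned positive when 1 library was left out. With edgeR's quasi-likelihood test, 0 of the 9 members and 0 of 27263 genes (0.0%) passed at an adjusted p of 0.05. At an unadjusted p of 0.05, 1 member, DHH, was past the threshold, beside 6.86% of all genes (3.16% higher and 3.7% lower). DESeq2 called 141 of the 25148 genes it adjusted (0.561%), with DHH among them, and limma on the deposited FPKM called 0. Both H2O2 libraries lay below both mock libraries for 3 members, DHH, IHH and GLI3, as they did for 21.3% of all genes. They lay above for 1 member, HHIP, and for 18.2% of all genes. A gap of at least 2-fold below both mock libraries was seen for DHH and for 0.994% of all genes. The members were chosen with this contrast known, so these counts support nothing about them.

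Profiles over the 4 libraries were compared with those of 13706 other mRNA genes, by the distance between log2 values centred on each gene's mean, as a description. Closest to DHH were TMEM30B (distance 0.386), the epithelial splicing factor ESRP1 (0.479) and DCAF4L2 (0.556). TMEM30B measured 8.78 and 7.44 CPM in mock and 1.68 and 1.36 CPM in H2O2, and ESRP1 9.99 and 7.73 against 2.01 and 1.57 CPM. Both have the order of libraries seen for DHH, with smaller differences between the groups. Closest to IHH was MAMDC4 (distance 0.0214) and closest to GLI1 was H2AFY2 (0.0512), with 49.4 CPM in mock H and 22.8 to 27.4 CPM in the other libraries. Closest to PTCH1 was SNX5 (0.0157) and closest to SHH was ARFGAP1 (0.00958). With 4 points many genes come close to a flat profile.

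Other genes of the pathway were taken from 5 lists that follow its steps, and edgeR's test called 0 of their tested genes after adjustment over all genes. At an unadjusted p of 0.05, 5 of the 78 tested were higher and 3 lower, beside 3.16% higher and 3.7% lower over all genes. Of the 3, HHATL had under 20 reads in H2O2. Of the 7 ligand processing and release genes with at least 20 reads in each group, 6 had a negative log2 fold change, beside 52.8% of all genes. Among the 6 is ADAM17, at −0.0019. The median of the 7 was −0.48, beside −0.03 over all genes. Both H2O2 libraries lay below mock for 2 of the 7, beside 21.3% of all genes. With HHATL, which reached the 40 reads through its mock libraries alone, the median was −0.62 over 8 genes. That median was −0.39 without H2O2 H, and −0.19 without mock Q, where only 7 genes could be tested. HHAT, which attaches palmitate to the ligands, lay below mock in both H2O2 libraries, at 3.49 and 2.48 CPM in mock and 2.09 and 2.18 CPM in H2O2 (−0.48, SE 0.29, edgeR adjusted p = 0.75). DISP1, which releases the lipid-bearing ligand from the cell, measured 7.38 and 14.5 CPM in mock and 5.60 and 7.40 CPM in H2O2 (−0.75, SE 0.39, edgeR adjusted p = 0.724). The secreted carriers SCUBE3 (−0.96, SE 0.69) and SCUBE2 (−0.79, SE 0.52) overlapped between groups. HHATL, a relative of HHAT, had 3 and 44 reads in mock and 1 and 2 in H2O2, and its ratio of 0.0627 has a counting interval of 0.0125 to 0.195. Its mock reads came almost all from 1 library. The most abundant gene of the list, the protease ADAM17, measured 35.3 and 59.4 against 43.0 and 51.5 CPM (−0.0019, SE 0.30).

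Genes of the co-receptor list had a median of −0.07 over 6 tested genes, 0 of which separated the groups. Without H2O2 H the median was 0.03. The ligand-binding co-receptors CDON (8.26 and 14.4 CPM in mock, 9.24 and 12.2 in H2O2) and BOC (3.12 and 1.40 against 0.685 and 2.36 CPM) overlapped between the groups. For BOC the log2 ratio was −2.19 between the H libraries and 0.76 between the Q libraries. GAS1, another co-receptor, had 8 to 16 reads per library. The glypican GPC3, which competes for ligand, was the most abundant at 257 to 716 CPM (0.34, SE 0.51, edgeR adjusted p = 0.871).

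Genes of signal relay and GLI control had a median of 0.07 over 23 tested genes, with 4 above mock and 7 below mock in both H2O2 libraries, beside 18.2% and 21.3% of all genes. The median was −0.02 without H2O2 H and −0.0066 without TMM scaling. GPR161, a ciliary receptor that keeps the pathway off through cyclic AMP, measured 14.4 and 22.7 CPM in mock and 6.87 and 11.8 CPM in H2O2. It was the largest difference of the list (−0.99, SE 0.38, edgeR adjusted p = 0.717) and did not pass. The kinases ULK3 (−0.41, SE 0.19) and DYRK2 (−0.41, SE 0.19) followed, also below mock in both H2O2 libraries. SUFU, the main inhibitor that holds GLI proteins in the cytoplasm, measured 15.0 and 12.98 against 17.4 and 14.7 CPM (0.20, SE 0.22). KIF7, the ciliary tip kinesin, measured 20.5 and 25.8 against 30.6 and 25.4 CPM (0.27, SE 0.22), and the kinase ADRBK1 led in level at 211 to 312 CPM.

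Primary cilium genes were split, with 10 higher and 10 lower and a median of −0.05. Both H2O2 libraries lay above mock for 3 and below mock for 5, beside 18.2% and 21.3% of all genes. The median was 0.13 without mock H, 0.01 without H2O2 H and 0.02 without H2O2 Q. The transport gene IFT57 measured 2.37 and 2.69 CPM in mock and 4.28 and 4.23 CPM in H2O2 (0.75, SE 0.24, edgeR adjusted p = 0.717). The transition zone gene RPGRIP1L (0.56, SE 0.22) was likewise higher in both H2O2 libraries, and neither passed. KIF3B, the most abundant, measured 206 and 210.3 against 172 and 195 CPM, lower in both H2O2 libraries.

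Target genes of GLI factors other than the members had a median of 0.20 over 21 tested genes, with 12 higher and 9 lower. Both H2O2 libraries lay above mock for 5 and below mock for 3, beside 18.2% and 21.3% of all genes. The median was 0.45 without mock Q, 0.09 without mock H, 0.04 without H2O2 Q and 0.14 without H2O2 H. SNAI1, a repressor of epithelial genes with many other inputs, measured 8.15 and 8.48 CPM in mock and 23.9 and 11.2 CPM in H2O2 (1.08, SE 0.39, edgeR adjusted p = 0.717). PDGFRA, a growth factor receptor, measured 19.9 and 17.9 against 42.9 and 28.6 CPM (0.92, SE 0.26, edgeR adjusted p = 0.717). The MYC family gene MYCN overlapped between groups, at 27.1 and 12.6 against 54.4 and 21.9 CPM (0.94, SE 0.56). In the other direction, the lowest log2 fold change of the list was that of JAG2 (−0.72, SE 0.28). SPP1, the gene of the list with the most reads, measured 103 and 563 CPM in mock H and Q and 126 and 477 CPM in H2O2 H and Q, a split by letter.

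**Figure D4:**
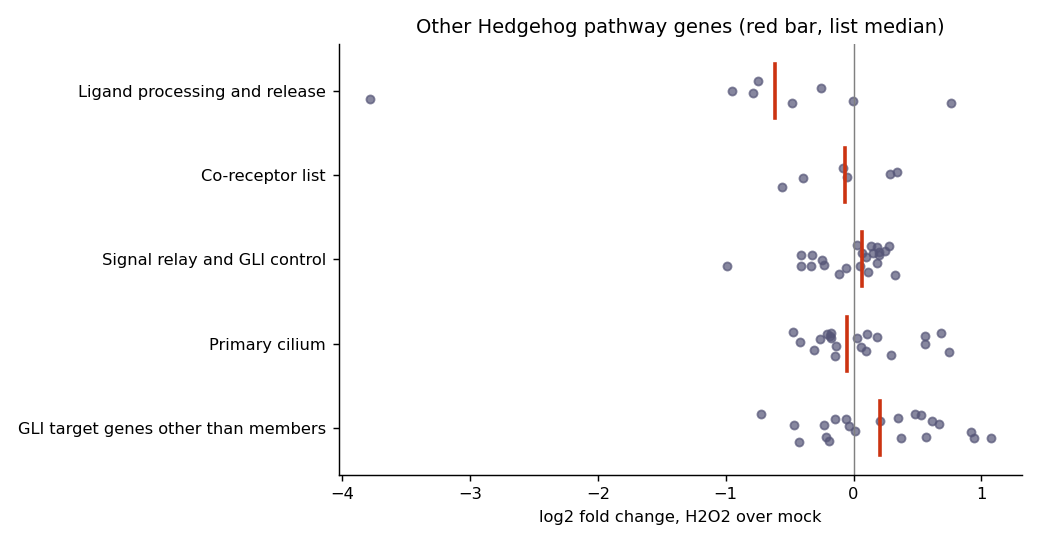
Log2 fold change of H2O2 over mock for each tested gene of 5 lists of other Hedgehog pathway genes, 1 point per gene, with a red bar at the list's median. The medians run from −0.62 (with HHATL) for ligand processing and release to 0.20 for GLI target genes, and the lowest point, at −3.79, is HHATL, with 3 and 44 reads in mock and 1 and 2 in H2O2.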

How the data were processed

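RNA-seq of 2 mock and 2 H2O2 libraries of Huh7 cells was analysed from the 4 deposited tables, which give a read count and an FPKM for each of 58146 transcript models. The counts are the authors' whole-number reads per model, per the file headers. Their totals, also over 1 model per gene, exceed the mapped mates, so a mate can be counted more than once. The deposited FPKM are the authors' values, so named per the file headers, and how they were made is not given. They do not follow the reads for every gene: FPKM per CPM differed over 2-fold between libraries for 8.32% of 27142 genes. Submitters' processing notes name TopHat 1.3.3, Bowtie 0.12.2, Cuffdiff and CASAVA, and the builds hg19, GRCh37 and mm8, with no roles, and the counting program and its use of strand are not given in the sources used here. No coordinates of the files were used.

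From the counts, 1 model per symbol (the most reads), genes with at least 40 reads in all, TMM scaling and edgeR 4.0.16 quasi-likelihood (R 4.3.3; treatment as the only term, 2 residual degrees of freedom, Benjamini-Hochberg at 5%) gave fold changes. Totals of these models were 103851326 and 108117565 reads in mock H and Q, and 113082498 and 112972746 in H2O2 H and Q. The script was tested on simulated data. SEs are the log2 fold change divided by the root of its F. DESeq2 1.42.0, limma 3.58.1 on log2(FPKM + 1) and other scalings, filters, a letter block and left-out libraries were alternatives. Poisson ratios have exact 95% intervals for counting error only. Members, lists and tests were chosen with earlier results of these data known. Named genes were all members, the 3 largest fold changes and the most abundant gene of each list plus SUFU, KIF7, CDON, BOC, GAS1, DISP1 and HHAT, the top gene of each marker list, and the 3 genes nearest in profile to each member with a mean of 100 reads. Some genes that this rule names are not reported here. DHH's neighbours were added after its values were seen. Gene neighbours, overlaps and promoters came from RefSeq on GRCh38.p14, where 7 of the 9 members had promoter windows.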

Additional observations from a re-analysis of the deposited data

How the results depend on the processing

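With edgeR's quasi-likelihood test 0 genes passed, and the count was also 0 with summed transcript models, RLE or no TMM scaling, limma on log2(FPKM + 1) or log2(FPKM + 0.1), the FPKM filter, and without each of the 4 libraries in turn (0 to 0). DESeq2 called 141 genes (35 higher, 106 lower), 0.561% of those it adjusted, with DHH among them. No filter on low counts gave 9, all lower and none a member. The replicate block, with the letter as the number, gave 57 of 27263 genes (13 higher, 44 lower), with DHH among them. DHH was chosen with this contrast known, so its calls support nothing about it. The 2 pairs share only a letter, and the difference between letters in mock and in H2O2 correlated at r = 0.636 across 18638 genes, which are not independent. The cause of these changes in count was not tested. Over all alternatives DHH kept its direction (−3.32 to −2.09), as did IHH (−1.10 to −0.38), SMO (−0.49 to −0.02), HHIP (0.18 to 0.57) and GLI3 (−2.36 to −0.28). Leaving out a library in turn gave −0.14 to 0.034 for SHH, −0.10 to 0.43 for PTCH1, −0.88 to 0.20 for GLI1 and −0.30 to 0.38 for GLI2. GLI2 was also positive with summed models (0.014), RLE (0.029), DESeq2 (0.029), limma (0.35 and 0.77), no filter (0.008) and the replicate block (0.024). List medians turned sign for co-receptors with limma (0.0065 and 0.0078) and over left-out libraries (−0.175 to 0.0275), for signal relay with no TMM scaling (−0.0066) and over left-out libraries (−0.0249 to 0.0492), and for cilium genes with limma (0.0258 and 0.026) and over left-out libraries (−0.12 to 0.129). The cause was not tested. A minimum of 20 reads in each group, chosen after seeing the data, left HHATL and GAS1 out of the lists and gave medians of −0.482 for ligand processing and −0.0504 for co-receptors. Neither GLI2 nor GLI3 passed the FPKM filter. With 15 to 132 reads per library, GLI2, GLI3 and HHIP allow only large differences to be seen, and 2 libraries a group leave 2 residual degrees of freedom.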
